A study of Mus musculus with 4 samples.

Results

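Pigr, Epcam, Cldn7, Col17a1, Fabp1, Plekhs1, Aqp4 and Cdh1 are genes best known from epithelia, and their transcripts were measured in single dendritic cells (DCs) of mouse mesenteric lymph nodes. These 8 members, of 32289 genes in the matrices, were chosen by name after earlier results of these data had shown them in RORgt dendritic cells. Their levels across cell states are therefore a description and carry no test. The mice were untreated, 15 days old and of the genotype Gm38411-iCre-hCD2 R26 tdTomato. By that name Gm38411 carries a Cre recombinase (iCre) together with human CD2 (hCD2), a surface tag of present activity, while tdTomato at Rosa26 stays on in cells that once had Cre. The libraries are labelled tdTomato+ hCD2+ DCs and tdTomato+ hCD2- DCs. All mice carried the same alleles, so that no animal without Cre was compared. In each fraction 12 hashtags, antibody-bound barcodes taken here as 12 mice, marked the source of each cell.

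After filtering, 7099 hCD2+ cells (365 to 897 per mouse, median 17486 UMIs, counted RNA molecules) and 4762 hCD2- cells (234 to 592 per mouse, median 23846 UMIs) remained. Each fraction was 1 library, so that fraction and library cannot be told apart. Of the cell barcodes kept, 9 occurred in both libraries, and 0 of them carried the same hashtag in both. Levels below are given per 1000000 UMIs of a class (CPM), computed per mouse with at least 10 cells and given as mean ± SD over mice. The assay reads transcript ends, and levels are compared between cells and not between genes.

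RORgt dendritic cells are a rare type of antigen-presenting cell, related to or overlapping with AIRE-expressing cells of lymph nodes, and are known for a role in tolerance to gut antigens. AIRE is a nuclear protein that lets thymic epithelial cells transcribe genes of other tissues. The members fall into roles known from epithelia. Epcam, Cldn7 and Cdh1 encode proteins of cell contacts: a homophilic adhesion molecule, a claudin that binds it, and E-cadherin of adherens junctions. Pigr encodes the receptor that carries polymeric immunoglobulins across mucosal epithelium. Col17a1 encodes a transmembrane collagen of hemidesmosomes, which tie basal keratinocytes to the basement membrane. Fabp1 encodes a fatty acid binding protein of liver and small intestine, and Aqp4 a water channel known from brain astrocytes and some epithelia. Plekhs1 encodes a protein with a pleckstrin homology domain.

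The cells were clustered without the members, and clusters were named from marker lists. RORgt DC-like cells formed 3 states, told apart by Prdm16, a transcription factor gene, and Aire. The Prdm16-high state held 640 hCD2+ and 2 hCD2- cells, with Prdm16 at 3312 ± 380 CPM and Aire at 16.4 ± 9.71 CPM (n = 12 hCD2+ mice). The Aire-high state held 341 and 14 cells, with Prdm16 at 1875 ± 187 CPM and Aire at 585 ± 115 CPM (n = 12). The Prdm16-low state held 253 and 181 cells, with Prdm16 at 148 ± 79.7 CPM and Aire at 177 ± 61.0 CPM in the hCD2+ fraction (n = 12). A marker counted as elevated in a cluster where it was at least 2-fold above the other cells and seen in at least 10% of the cluster's cells. The name of the Prdm16-low state rests on 4 of 9 RORgt DC markers, and the cluster's leading genes, such as Nrg1 and Ncam1, were none of them. A further cluster of 220 and 9 cells had 4 of 9 RORgt DC markers elevated but also 7 of 10 markers of CCR7+ migratory DCs, and was left without a class. The named states were mixed too: the Aire-high state also had 5 of 10 CCR7+ migratory DC markers elevated, and the Prdm16-high state 4 of 9 markers of cDC2 (conventional type 2 DCs) and 3 of 21 of intestinal epithelium. The cluster without a class is called the CCR7-high cluster here, and held Prdm16 at 1121 ± 254 CPM (n = 8 hCD2+ mice). Gm38411, the gene that carries Cre and hCD2, stood at 110 ± 12.7 CPM in the Prdm16-high state and at 32.1 ± 8.99 CPM in the Aire-high state. The label DCs did not hold for all cells: 3068 hCD2+ cells had markers of innate lymphoid cells of the ILC3 or LTi kind, and these served as the comparison of the same fraction.

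The members' gene bodies, all protein-coding, lie on different chromosomes except for Col17a1 and Plekhs1 (mm10, GENCODE). Pigr is ENSMUSG00000026417 at chr1:130826684-130852249, Epcam ENSMUSG00000045394 at chr17:87635979-87651129, and Cldn7 ENSMUSG00000018569 at chr11:69964779-69967885. Fabp1 is ENSMUSG00000054422 at chr6:71199827-71205023 and Cdh1 ENSMUSG00000000303 at chr8:106603351-106670246. Col17a1 (ENSMUSG00000025064) and Plekhs1 (ENSMUSG00000035818) share chromosome 19, at chr19:47646344-47692094 on the minus strand and at chr19:56461640-56486752. Promoters of 250 bases before the start were taken from RefSeq (GRCm38.p6), where 6 of the 8 members matched and Aqp4 and Cdh1 did not. Those of Pigr, Cldn7 and Fabp1 are shown because they were among the members most alike across cell classes, and that of Epcam because it was highest in another cluster. All 4 lie on the plus strand: Pigr chr1:130826434-130826683, Cldn7 chr11:69964529-69964778, Fabp1 chr6:71199629-71199878 and Epcam chr17:87635729-87635978. Capitals mark a motif on either strand.

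Pigr: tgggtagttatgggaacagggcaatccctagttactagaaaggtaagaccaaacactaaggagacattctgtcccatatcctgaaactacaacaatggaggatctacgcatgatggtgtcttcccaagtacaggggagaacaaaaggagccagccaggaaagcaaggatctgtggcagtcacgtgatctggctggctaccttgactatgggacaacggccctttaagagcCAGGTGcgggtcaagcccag

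Cldn7: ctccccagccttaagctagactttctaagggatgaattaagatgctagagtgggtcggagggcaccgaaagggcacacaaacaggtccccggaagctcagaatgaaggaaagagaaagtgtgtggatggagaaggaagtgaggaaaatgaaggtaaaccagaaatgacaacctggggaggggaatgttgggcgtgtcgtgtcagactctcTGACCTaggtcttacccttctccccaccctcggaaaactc

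Fabp1: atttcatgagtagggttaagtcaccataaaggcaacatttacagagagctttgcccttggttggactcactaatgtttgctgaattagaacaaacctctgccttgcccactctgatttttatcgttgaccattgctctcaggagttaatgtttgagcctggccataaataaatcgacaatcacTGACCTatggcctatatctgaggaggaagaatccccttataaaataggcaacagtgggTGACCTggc

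Epcam: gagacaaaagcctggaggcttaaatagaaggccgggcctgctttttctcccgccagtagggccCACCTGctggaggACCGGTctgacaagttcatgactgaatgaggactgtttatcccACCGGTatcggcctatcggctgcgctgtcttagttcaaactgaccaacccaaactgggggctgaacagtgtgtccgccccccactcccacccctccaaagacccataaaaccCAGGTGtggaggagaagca

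The motifs searched on both strands were AGGTCA (the half-site of many nuclear receptors), CACCTG (an E-box), ACCGGT (part of the grainyhead site, its own reverse complement) and AAAGTCCA (part of the HNF4 site). AGGTCA and CACCTG can overlap by their CA ends, and none of the 6 promoters held both. Fabp1 had AGGTCA 2 times and Cldn7 1 time, all on the strand opposite to the gene. GENCODE starts Fabp1 before the RefSeq start, so that the end of its window, with 1 of its 2 AGGTCA, lies inside the gene body given above. This motif is in 14.02% of 32851 promoters of the same length. Epcam had ACCGGT 2 times and CACCTG 2 times, Pigr and Plekhs1 had CACCTG 1 time each, and Col17a1 had none of the 4. ACCGGT is in 1.86% of the promoters, CACCTG in 17.2% and AAAGTCCA in 1.01%. No motif was common to Pigr, Cldn7 and Fabp1, and a match is a description of letters only.

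Among the cell contact genes, Epcam was present in every mouse in the Prdm16-high state, the Aire-high state and the CCR7-high cluster. It ran from 102 to 162 CPM (median 118, n = 12 mice) in the Prdm16-high state. In the Aire-high state it ran from 170 to 279 CPM (median 207, n = 12), and in the CCR7-high cluster from 312 to 525 CPM (median 447, n = 8). The 3 ranges did not overlap, so that every mouse with values for both ordered them alike, while the Prdm16-low state held 4.26 ± 4.73 CPM and ILC3 or LTi cells 1.70 ± 0.856 CPM (n = 12 each). Other cells had lower Epcam: plasmacytoid DCs of the hCD2- fraction reached 24.7 ± 9.06 CPM (n = 5) and the Ccl17 type of CCR7+ DCs 20.6 ± 19.2 CPM (hCD2+, n = 12).

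Cldn7, whose product pairs with EPCAM in epithelial membranes, did not follow Epcam into the CCR7-high cluster. It ran from 99.3 to 163 CPM (median 131, n = 12) in the Prdm16-high state and from 12.7 to 49.6 CPM (median 29.7, n = 12) in the Aire-high state. These ranges did not overlap. In the CCR7-high cluster, where Epcam was highest, Cldn7 stood at 0.738 ± 0.940 CPM (n = 8), with UMIs in 4 of 8 mice. Cldn7 and Epcam thus had opposite orders across these 3 groups of cells.

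Cdh1, the E-cadherin gene, was low in all RORgt DC-like states. It ran from 5.05 to 33.3 CPM (median 12.5, n = 8) in the CCR7-high cluster and from 1.498 to 14.2 CPM (median 5.87, n = 12) in the Prdm16-high state, and these ranges overlapped. Its highest level was outside these cells, at 109 to 206 CPM (median 134, n = 5 mice) in plasmacytoid DCs of the hCD2- fraction. Pooled plasmacytoid DCs of the hCD2+ fraction, 32 cells with too few per mouse for a spread, held 152 CPM. Of the 8 members Cdh1 was the one whose highest level lay outside the 3 states and the CCR7-high cluster.

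Pigr was held by the Prdm16-high state. It ran there from 82.6 to 185 CPM (median 143, n = 12 mice). The Aire-high state held 3.91 ± 3.58 CPM, with UMIs in 8 of 12 mice and none above 9.61 CPM. The CCR7-high cluster had UMIs in 4 of 8 mice and a highest value of 32.1 CPM, still below the lowest of the Prdm16-high state. In the Prdm16-low state 0 UMIs of Pigr were seen among 6252911, where 3 UMIs would have been 0.480 CPM. Of all Pigr UMIs in kept hCD2+ cells, 94.0% were in the Prdm16-high state, which made up 9.02% of the cells.

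Col17a1 was graded over the states. It ran from 1159 to 1636 CPM (median 1362, n = 12) in the Prdm16-high state, from 381 to 598 CPM (median 489, n = 12) in the Aire-high state and from 81.7 to 306 CPM (median 167, n = 12) in the Prdm16-low state. These 3 ranges did not overlap. The CCR7-high cluster, at 66.4 to 227 CPM (median 98.1, n = 8), overlapped with the Prdm16-low state, and its highest mouse lay far above the next, at 117 CPM. ILC3 or LTi cells held 7.52 to 19.4 CPM (median 11.9, n = 12), below every mouse of the 4 groups.

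Fabp1 was shared by the Prdm16-high and Aire-high states. It ran from 271 to 412 CPM (median 352, n = 12) in the first and from 146 to 387 CPM (median 218, n = 12) in the second, with overlap. In the CCR7-high cluster it was 12.6 ± 5.58 CPM (n = 8) and in the Prdm16-low state 7.13 ± 4.39 CPM (n = 12). Both lay below every mouse of the Prdm16-high and Aire-high states.

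Plekhs1 did not set the states with high Prdm16 apart. It ran from 50.1 to 201 CPM (median 139, n = 12) in the Aire-high state, from 90.5 to 178 CPM (median 129, n = 12) in the Prdm16-high state and from 47.0 to 136 CPM (median 80.0, n = 8) in the CCR7-high cluster. All 3 ranges overlapped. The Prdm16-low state held 4.14 ± 4.12 CPM and ILC3 or LTi cells 0.140 ± 0.167 CPM (n = 12 each).

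Aqp4 was the one member held by the Aire-high state. It ran there from 21.1 to 68.8 CPM (median 44.1, n = 12 mice), against 0 to 1.21 CPM (n = 12) in the Prdm16-high state. The ranges did not overlap. The Prdm16-low state held 1.48 ± 1.53 CPM, with UMIs in 7 of 12 mice, although its Aire level was above that of the Prdm16-high state in every mouse. Of the Aqp4 UMIs in kept hCD2+ cells, 89.2% were in the Aire-high state.

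**Figure D1:**
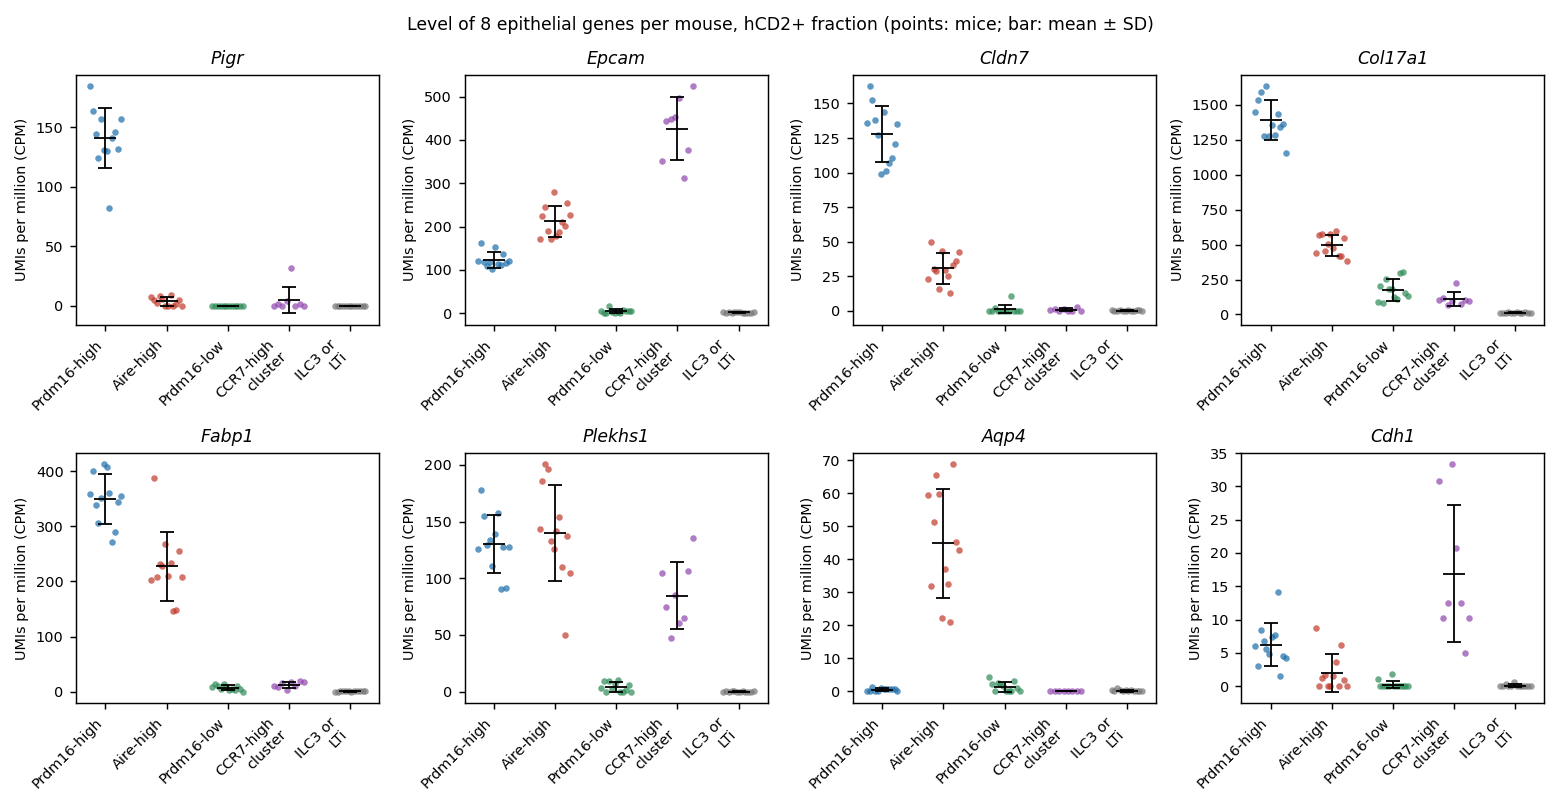
Level of each member (linear axis, CPM) in 5 groups of hCD2+ cells; each point is 1 mouse, and bars give mean ± SD. Pigr, Cldn7 and Col17a1 were highest in the Prdm16-high state, Aqp4 in the Aire-high state, and Epcam in the CCR7-high cluster, where all 8 mice were at 312 CPM or more.

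For a count over members, a gene was called separated between 2 states where mean CPM differed at least 2-fold and the mice did not overlap, among genes with at least 10 CPM in either state. Between Aire-high and Prdm16-high cells, 1 of 7 members tested was separated as higher in the Aire-high state (Aqp4), beside 7.12% of 8723 genes, and 3 as lower (Pigr, Cldn7 and Col17a1), beside 9.73%. Epcam had ranges apart but a 1.72-fold ratio. Between Prdm16-low and Prdm16-high cells, 6 of 6 members were lower, beside 7.46% of 9212 genes, and none was higher, beside 7.62%. Between the CCR7-high cluster and the Prdm16-high state Epcam was higher, beside 8.91% of 8691 genes, and 4 of 7 members were lower (Pigr, Cldn7, Col17a1 and Fabp1), beside 17.2%. Between Prdm16-high cells and ILC3 or LTi cells 6 of 6 were higher, beside 13.5% of 9272 genes. The members were chosen on these contrasts, so these shares are given for reference and nothing is read from them.

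The CCR7-high cluster could be set beside DCs of the same CCR7+ kind, the Cpne8 type, which had a median of 34484 UMIs per cell against 35486.5. Of 5 members tested 4 were separated as higher in the CCR7-high cluster (Epcam, Col17a1, Plekhs1 and Cdh1), beside 5.88% of 7784 genes. All 5 reached 10 CPM only in the cluster, so that none could come out as lower. Epcam stood at 426 ± 73.0 CPM there and at 5.39 CPM on average in the Cpne8 type, and Plekhs1 at 84.8 ± 29.2 CPM and 0.454 CPM. Against the Aire-high state Epcam was higher in the cluster, beside 4.04% of 8121 genes, and 4 of 7 members were lower (Cldn7, Col17a1, Fabp1 and Aqp4), beside 6.62%. The Prdm16-low state had 6 of 6 members lower than the Aire-high state, beside 5.73% of 9086 genes. The members were chosen on their pattern over these cells, so these shares too are given for reference and nothing is read from them.

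The share of cells with at least 1 UMI of a gene shows how evenly it was spread, and was compared at 5000 UMIs per cell, to which each cell was thinned. In the Prdm16-high state 614 of 640 cells were deep enough. Col17a1 was seen in 99.0% of them (95% Wilson interval 97.9 to 99.6%, counting error only, here and below), so that it marked nearly every cell. Fabp1 was seen in 54.7% (50.8 to 58.6%), Cldn7 in 42.5% (38.7 to 46.5%), Epcam in 41.5% (37.7 to 45.5%), Plekhs1 in 39.9% (36.1 to 43.8%) and Pigr in 37.9% (34.2 to 41.8%). Without thinning, these 5 shares were 64.2% for Pigr and 77.3 to 78.6% for the others. Aqp4 was seen in 0 of 614 cells, where 3 cells with a UMI would have been 0.489% at this depth. Without thinning it was seen in 1.56% of the 640 cells. In ILC3 or LTi cells at the same depth the shares were 0.066% for Pigr, 0.957% for Epcam and 3.76% for Col17a1 (3031 cells; median before thinning 16700.5 UMIs, against 34714.5 in the Prdm16-high state).

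Aire-high cells (320 at this depth) differed by having Aqp4 in 20.6% (16.6 to 25.4%) and Epcam in 54.7% (49.2 to 60.1%), while Pigr was seen in 2.19% (1.06 to 4.45%). In the CCR7-high cluster (212 cells) Epcam was seen in 64.2% (57.5 to 70.3%), Plekhs1 in 32.5% (26.6 to 39.1%) and Cdh1 in 4.72% (2.58 to 8.46%). Cdh1 was seen in 46.9% (37.4 to 56.7%) of 98 plasmacytoid DCs of the hCD2- fraction. At least 1 member was seen in 99.7% of Prdm16-high, 95.3% of Aire-high and 84.4% of CCR7-high cluster cells. At least 3 were seen in 69.2%, 45.9% and 10.4% of them. In the Prdm16-low state 29.8% of 218 cells had at least 1, mostly Col17a1 at 28.0% (22.4 to 34.3%), and in ILC3 or LTi cells 5.31%.

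**Figure D2:**
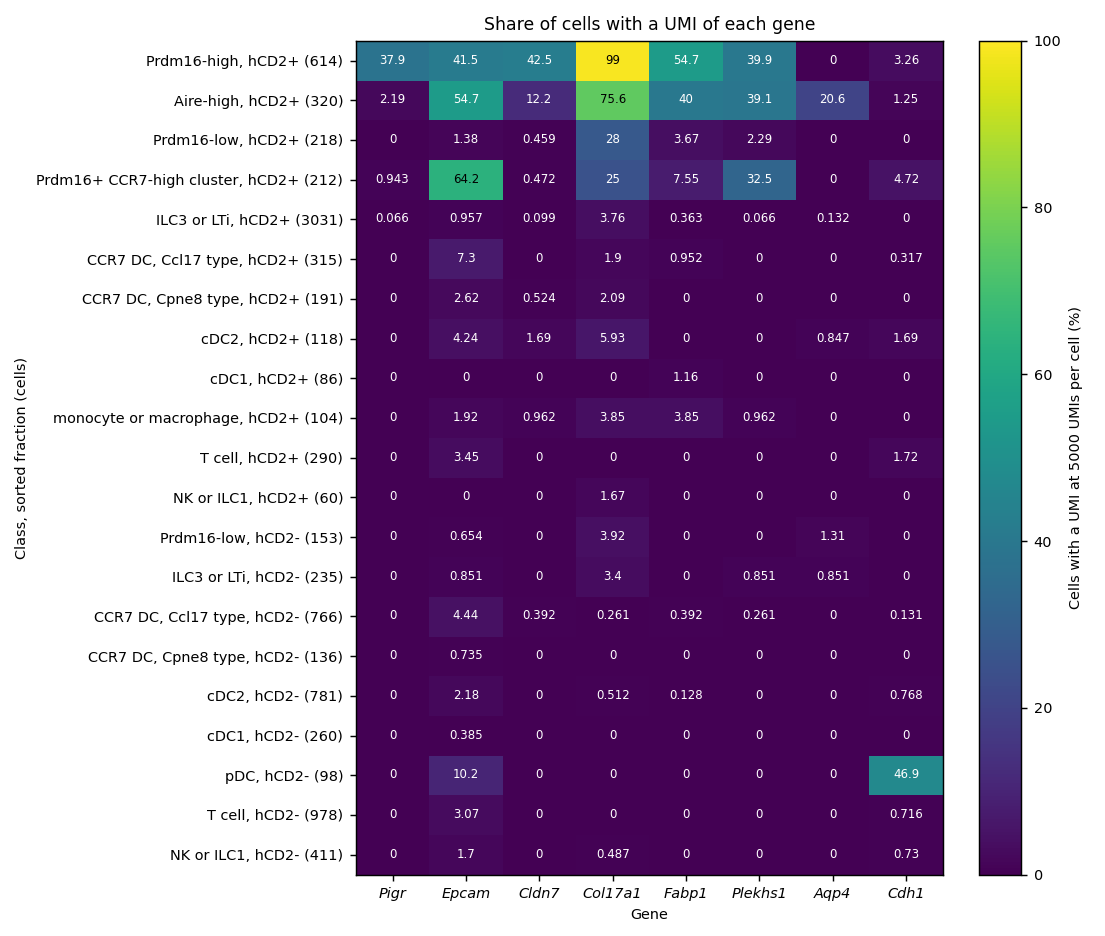
Share of cells with at least 1 UMI of each member after thinning to 5000 UMIs per cell, for classes with at least 50 such cells; rows are class and fraction with the number of cells, and colour gives the percentage. The 3 rows with high Prdm16 in the hCD2+ fraction stand out, together with Cdh1 in plasmacytoid DCs at 46.9%.

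RNA released from broken cells enters all droplets and could bring epithelial transcripts into other cells. It was read from droplets of 10 to 100 UMIs, of which the hCD2+ library had 151806 and the hCD2- library 151362. The hCD2+ droplets held Col17a1 at 225 CPM, Fabp1 at 66.8 CPM, Epcam at 44.6 CPM and Pigr at 13.9 CPM, and the hCD2- droplets 2.54, 0.613, 6.83 and 0.263 CPM. Free RNA was thus richer in these genes in the fraction that held the Prdm16-high cells. Genes that some classes should lack, of antigen presentation (Cd74, H2-Aa, H2-Ab1), of T cells (Cd3e, Trac) and Itgax, bounded its share of a class's UMIs at 0.744% in the Prdm16-high state, 5.90% in the Aire-high state, 1.22% in the CCR7-high cluster and 16.7% in the Prdm16-low state. In the Prdm16-high state this gives at most 0.103 CPM of Pigr and 1.67 CPM of Col17a1. Pigr was 10.05 times and Col17a1 6.24 times as high in these cells as in the droplets, and Epcam in the CCR7-high cluster was 9.61 times as high.

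In the Prdm16-low state, free RNA allows up to 7.46 CPM of Epcam, 11.2 CPM of Fabp1 and 4.34 CPM of Plekhs1. The pooled levels there, 4.0, 7.52 and 4.16 CPM, were below these bounds, and where these UMIs came from was not tested. Col17a1 stood at 167 CPM against a bound of 37.6 CPM. The same share allows up to 2.32 CPM of Pigr, of which these cells held 0 UMIs, so that these bounds are upper limits.

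**Figure D3:**
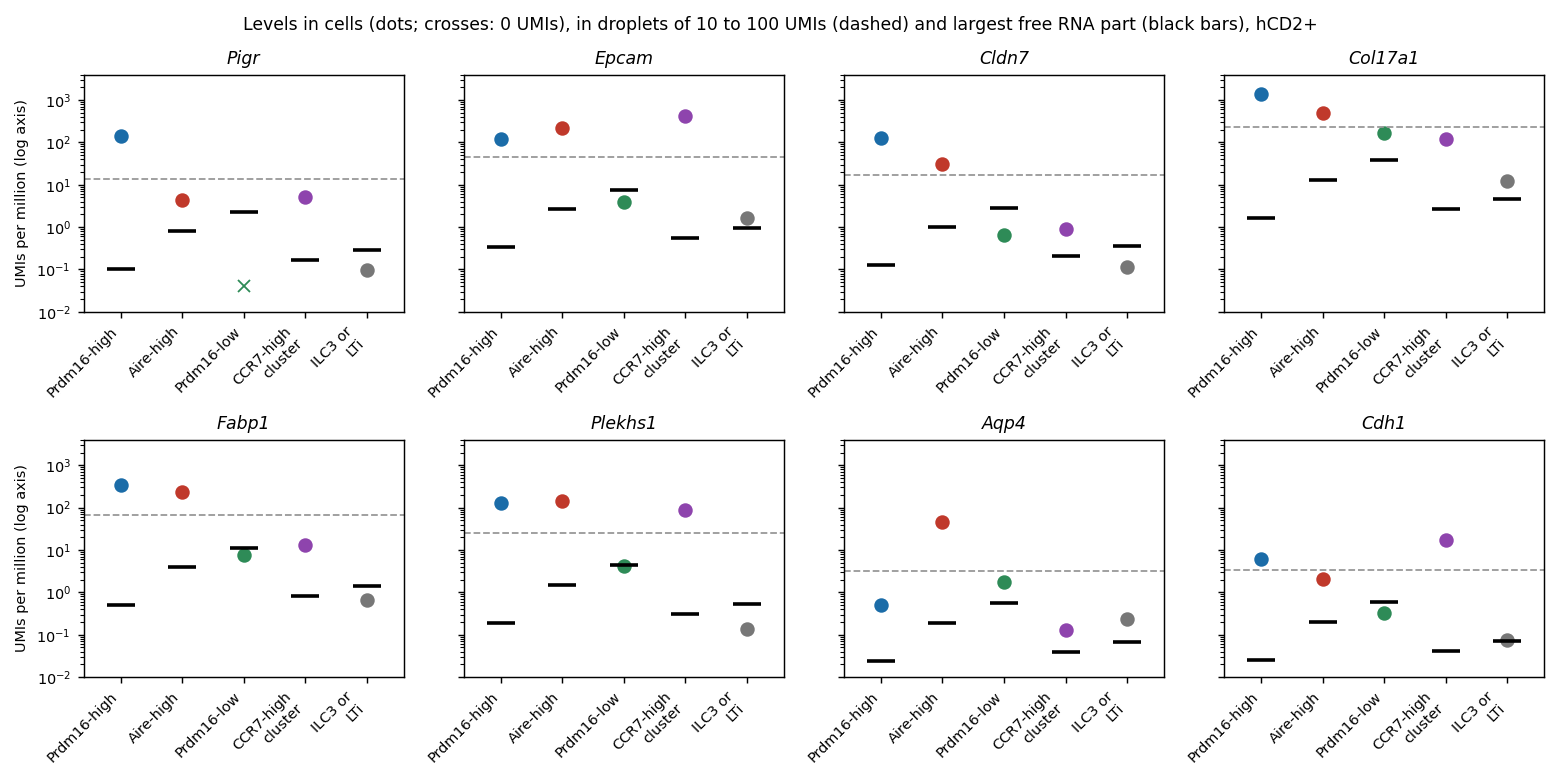
Pooled level of each member in hCD2+ cells (dots; crosses for 0 UMIs), level in hCD2+ droplets of 10 to 100 UMIs (dashed line) and largest part that free RNA could give (black bars), in CPM on a log axis. Dots of the Prdm16-high state lie far above their bars, and those of Epcam, Cldn7 and Fabp1 in the Prdm16-low state lie below them.

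Of the markers that define epithelial cells, most had 0 UMIs in the Prdm16-high and Aire-high states, while Krt8 was present. The list of 21 was counted as elevated, with 3 markers, in the Prdm16-high state and in the CCR7-high cluster. Of these 21 intestinal epithelium markers, 3 reached 5 CPM in the Prdm16-high state (Krt8, Krt18 and Lgals4), 1 in the Aire-high state and 2 in the CCR7-high cluster, and 13, 14 and 10 were at 0. Their summed level ran from 15.7 to 55.4 CPM over 12 mice in the Prdm16-high state, from 21.1 to 85.5 CPM over 12 in the Aire-high state and from 46.3 to 94.7 CPM over 8 in the CCR7-high cluster. Krt19 and Alpi, of enterocytes, had 0 UMIs in the 4 groups of cells. Krt8, a keratin of simple epithelia, made up much of the sum, at 24.0 ± 10.5, 44.0 ± 16.2 and 47.1 ± 16.2 CPM. Krt20, of the same list, had 0 UMIs in the Prdm16-high state. Of 2 keratins tested, Krt20 was separated as higher in the CCR7-high cluster than there, beside 8.91% of 8691 genes. Krt20 reached 10 CPM only in the cluster, so that it could only come out as higher. The median log2 ratio of the 2 keratins was 2.52 beside -0.30 over all genes tested. Against the Cpne8 type both Krt8 and Krt20 were higher, beside 5.88% of 7784 genes (median 4.28 beside 0.06). In that contrast both genes reached 10 CPM only in the cluster. Nothing is read from these keratin counts and medians. Of 8 squamous or basal markers, Krt5, Krt14, Krt15 and Krt6a had 0 UMIs in the 4 groups, and Sfn reached 31.7 CPM pooled in the Aire-high state.

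Lists of other cell types were also measured in these cells. The CCR7+ migratory DC list (10 markers) summed to 1045 to 1431 CPM in the Prdm16-high state, 6180 to 7760 CPM in the Aire-high state, 3089 to 4806 CPM in the Prdm16-low state and 10730 to 12559 CPM in the CCR7-high cluster. The ILC3 or LTi list (12 markers) summed to 975 to 1247 CPM in the Prdm16-high and 1099 to 1565 CPM in the Aire-high state, against 9096 to 10664 CPM in ILC3 or LTi cells. The summed B cell list (6 markers) ran from 19.8 to 43.4 CPM in the Prdm16-high state and the T cell list (9 markers) from 35.8 to 89.1 CPM. In the Prdm16-low state they ran from 243 to 649 CPM and from 31.8 to 421 CPM, and the part of these lists in the members' values was not tested. The RORgt DC list, which includes Prdm16, ran from 3525 to 4660 CPM in the Prdm16-high state and from 185 to 225 CPM in ILC3 or LTi cells.

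Partners of the members in epithelia were present in part. Of 23 tight junction genes in the files, 6 had 10 CPM or more in the Prdm16-high state and 13 were under 1 CPM. Tjp3, a scaffold of tight junctions, stood at 113 ± 15.5 CPM (n = 12) there, 47.3 ± 12.7 CPM (n = 12) in the Aire-high state and 9.64 ± 3.47 CPM (n = 8) in the CCR7-high cluster, the order of Cldn7. Ocln, which encodes occludin, had the opposite order, at 7.43 ± 3.54, 21.1 ± 12.9 and 56.2 ± 25.9 CPM. Tjp1, the common scaffold gene of epithelial tight junctions, had 0 UMIs in the Prdm16-high mice. Of 7 tight junction genes tested between the CCR7-high cluster and the Prdm16-high state, Ocln was separated as higher and Tjp3 as lower. Over all 8691 genes tested, 8.91% were higher and 17.2% lower. The median log2 ratio of the 7 was 0.54 beside -0.30 over all genes tested.

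Adherens junction genes and partners of EPCAM were present in larger part, 10 of 16 at 10 CPM or more in the Prdm16-high state 12 of 16 in the Aire-high state and 11 of 16 in the CCR7-high cluster, but also 10 of 16 in the Prdm16-low state, where Epcam and Cldn7 were low. Spint2, a protease inhibitor that protects EPCAM and CLDN7 from cleavage, stood at 201 ± 15.6 CPM in the Prdm16-high state, 799 ± 86.1 CPM in the Aire-high state and 708 ± 71.1 CPM in the CCR7-high cluster. Ctnna1, the alpha-catenin gene, stood at 124 ± 31.3, 570 ± 75.02 and 379 ± 58.0 CPM. Both were separated as higher in each of the latter than in the Prdm16-high state. Of 12 such genes tested, 2 were higher in the Aire-high state, beside 7.12% of 8723 genes, and 0 were lower, beside 9.73%. The median log2 ratio of the 12 was 0.06 beside -0.25 over all genes. In the CCR7-high cluster 4 of 11 were higher, also St14, the matriptase gene, and Cd44, beside 8.91% of 8691 genes. As lower, 0 were separated, beside 17.2%. The median of the 11 was 0.50 beside -0.30.

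Of 17 desmosome and hemidesmosome genes, 7 reached 10 CPM in the Prdm16-low state, 5 in the Aire-high state, 4 in the Prdm16-high state and 1 in the CCR7-high cluster. Of 8 tested, 5 were separated as higher in the Prdm16-low than in the Prdm16-high state, beside 7.62% of 9212 genes. As lower, 0 were separated, beside 7.46%. The median log2 ratio of the 8 was 2.08 beside 0.08 over all 9212 genes. Dsg2, a desmoglein gene, stood at 104 ± 39.2 CPM against 4.19 ± 3.68 CPM, and Dsc2, a desmocollin gene, at 31.1 ± 19.3 CPM against 0 UMIs. Itga6, whose integrin chain meets collagen XVII in hemidesmosomes, stood at 114 ± 28.7 CPM against 20.8 ± 6.73 CPM, and Dst, a hemidesmosome linker gene, at 38.3 ± 15.1 CPM against 3.64 ± 2.08 CPM. Col17a1 had the opposite order. Against the Aire-high state, the listed genes separated as higher in the Prdm16-low state were Dsc2 and Dst. In ILC3 or LTi cells Pkp4, Dst and Plec were also separated as higher than in the Prdm16-high state. Levels above those of the Prdm16-high state were thus not particular to the Prdm16-low state. No share over all genes is set beside these further contrasts.

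Among 26 epithelial transcription and splicing factors, 20 were under 1 CPM in the Prdm16-high state. Trp63, which encodes the p63 factor of basal epithelium and is also one of the RORgt DC markers, stood at 257 ± 88.9 CPM in the Prdm16-low, 91.9 ± 40.9 CPM in the Aire-high and 34.7 ± 15.5 CPM in the Prdm16-high state. Klf4 was separated as higher in the Prdm16-low state, at 291 ± 99.1 CPM against 62.9 ± 29.8 CPM. Grhl3, a grainyhead factor gene, stood at 14.2 ± 6.42 CPM in the Aire-high state and 0.403 ± 0.427 CPM in the Prdm16-high state. Hnf4a, a factor of gut and liver epithelium, had 0 UMIs in the 4 groups.

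Relatives of single members were told apart from them. Of 6 further fatty acid binding protein genes, Fabp5 was separated as higher in the Prdm16-low state (1185 ± 170 CPM) and in the CCR7-high cluster (1069.9 ± 319 CPM) than in the Prdm16-high state (299 ± 70.9 CPM), unlike Fabp1. Fabp2, the other intestinal member, had 0 UMIs in the 4 groups. Fcmr, the IgM Fc receptor gene related to Pigr and also known from B cells, stood at 33.7 ± 5.36 CPM in the Prdm16-high and 4.95 ± 2.95 CPM in the Aire-high state. No other aquaporin gene reached 10 CPM in the Aire-high state.

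The pattern over cell classes was compared with that of 10930 other genes by Pearson's r of log2(mean CPM + 1) over 26 class and fraction groups, which share libraries and mice, as a description. Pigr was most like Fcmr (r = 0.930), Gpr39 (0.928) and Cpne4 (0.927). Col17a1 was most like Prdm16 (0.927), Stab1 (0.888) and Cep112 (0.871), and Cldn7 most like Asic1 (0.939), Fcmr (0.932) and Rhox7a (0.929). Fabp1 was most like Asic1 (0.912), Tdh (0.910) and Prdm16os (0.908), and Plekhs1 most like Prdm16os (0.937), Rtn4r (0.922) and Krt8 (0.901). Prdm16os is by its name antisense to Prdm16, and whether strand was used in counting is not given in the sources used here. Of these genes, Cep112, Rhox7a, Tdh and Rtn4r were highest in the Aire-high state and Krt8 in the CCR7-high cluster. For the other members the most alike were Rasd2 (0.841), Ido1 (0.840) and Syngr3 (0.824) for Epcam, Rarres1 (0.922), Scara3 (0.906) and Dhx35 (0.891) for Aqp4, and Fam214a (0.796), Scrn1 (0.780) and Dag1 (0.776) for Cdh1. Among the members, Cldn7 and Fabp1 were most alike (0.909), followed by Pigr and Cldn7 (0.896), and Aqp4 and Cdh1 least (-0.080).

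Whether members met in the same cells was tested within the Prdm16-high state. The choice of members did not use how they were spread over its cells. The share of cells with one gene was compared between cells with and without another, per mouse and at 5000 UMIs per cell. Over 18 pairs of members, or of a member with Aire, each with values in 12 mice, an exact two-sided sign-flip permutation test gave 6 pairs with a Benjamini-Hochberg adjusted p under 0.05. Epcam was seen in 51.7 ± 9.28% of Pigr+ and 35.9 ± 5.80% of Pigr- cells, a difference of 15.8 ± 10.5 percentage points (higher in 12 of 12 mice; exact permutation adjusted p = 0.00879). The difference was 15.5 ± 17.7 points for Fabp1 in Epcam+ against Epcam- cells (10 of 12 mice; exact permutation adjusted p = 0.0483) and 11.6 ± 15.1 points for Plekhs1 in Fabp1+ against Fabp1- cells (10 of 12; exact permutation adjusted p = 0.0176). In these pairs, cells with one transcript held the other more often.

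At 5000 UMIs per cell the differences for Aire, low in this state, varied in direction between members. It was seen in 1.44 ± 3.74% of Pigr+ and 7.89 ± 6.43% of Pigr- cells, which was lower in 9 mice and higher in 1 (-6.45 ± 5.63 points; exact permutation adjusted p = 0.0234). It was also seen less often in Cldn7+ cells (-4.90 ± 5.60 points; lower in 9 mice, higher in 1; exact permutation adjusted p = 0.0264). In Fabp1+ cells it was seen more often (5.54 ± 5.83 points; higher in 8 mice, lower in 2; exact permutation adjusted p = 0.0281). In Epcam+ and Plekhs1+ cells the difference for Aire did not pass (2.41 and -2.06 points, exact permutation adjusted p = 0.237 and 0.369). The 3 pairs that passed rest on 36 cells with an Aire UMI, of which 3 held Pigr, 8 Cldn7 and 29 Fabp1. Pigr and Cldn7 were also lower in the Aire-high state, a contrast on which the members were chosen. Whether some of the 36 cells were of the Aire-high kind was not tested. The Aire pairs are therefore not independent of that choice, and nothing is read from their directions. The co-detection results changed between depths. Each depth had 1 random draw of UMIs, so that depth and draw cannot be told apart. At 3000 UMIs per cell none of the 18 pairs passed, and the differences fell to 4.45 points for Epcam in Pigr+ cells, -0.55 points for Aire in Pigr+ cells and -0.81 points for Aire in Cldn7+ cells. At that depth 6 pairs had an unadjusted exact permutation p under 0.05, of which 1, Epcam with Fabp1, had passed at 5000 UMIs. Another of them, Plekhs1 in Epcam+ cells, was 6.41 points at 5000 and -9.20 points at 3000 UMIs. At 10000 UMIs 10 pairs passed, among them Cldn7 with Fabp1 (18.8 points) but not Fabp1 with Plekhs1 (12.2 points; exact permutation adjusted p = 0.0557) or Fabp1 with Aire (4.99 points; 0.0557).

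**Figure D4:**
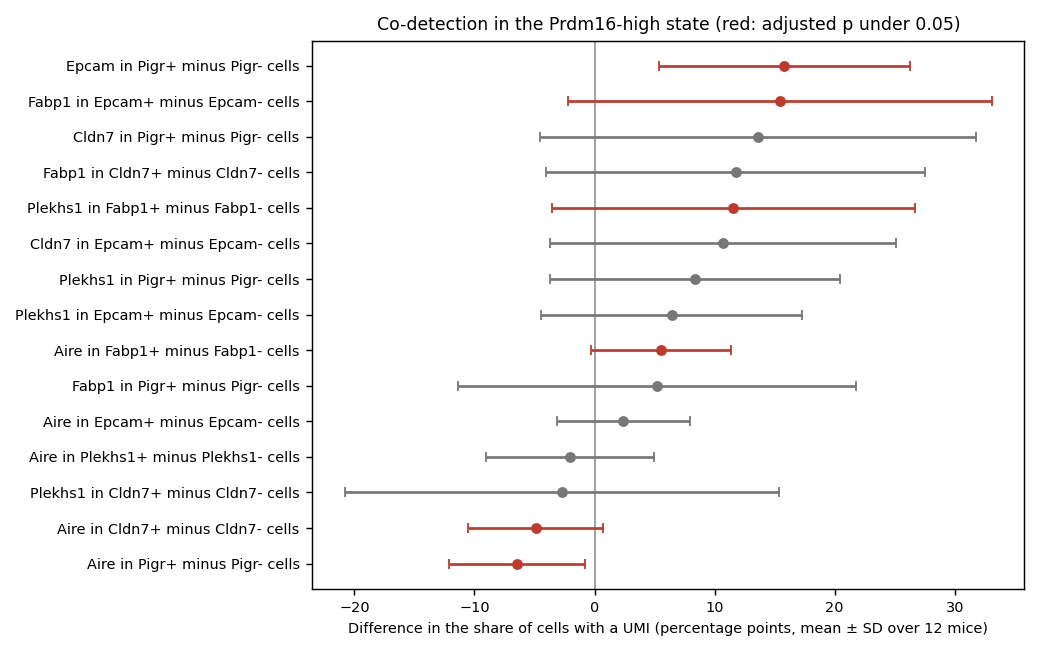
Difference in the share of Prdm16-high cells with the first gene between cells with and without the second, in percentage points, mean ± SD over 12 mice, at 5000 UMIs per cell; red points passed an adjusted p of 0.05. Pairs with Col17a1, seen in 99.0% of cells, are left out; the differences run from -6.45 points (Aire in Pigr+ cells) to 15.8 points (Epcam in Pigr+ cells).

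The fractions could be compared within 6 classes that had enough cells in both, by edgeR's quasi-likelihood test on counts summed per mouse. The Prdm16-high state, the Aire-high state and the CCR7-high cluster had 2, 14 and 9 hCD2- cells and were not compared. In the Prdm16-low state Col17a1 was higher in hCD2+ cells, at 81.7 to 306 CPM (median 167, n = 12 mice) against 0 to 33.4 CPM (median 7.94, n = 9). The ranges did not overlap, and Col17a1 was higher in 9 of 9 mice with both (log2 fold change 3.80 ± 0.38 SE; edgeR adjusted p = 1.32e-07). It was the 1 member tested there, beside 2.41% of 6295 genes called as higher. Prdm16 (log2 2.12 ± 0.34; adjusted p = 0.000293), Trp63 (1.15 ± 0.20; adjusted p = 0.000627) and Aire (0.75 ± 0.20; adjusted p = 0.0300) were also higher, by edgeR, in hCD2+ cells of this state. Free RNA allows 37.6 CPM of Col17a1 in the hCD2+ and 0.201 CPM in the hCD2- cells, and the pooled levels above these bounds were 129 and 13.5 CPM.

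In ILC3 or LTi cells Col17a1 ran from 7.52 to 19.4 CPM in hCD2+ mice (n = 12) and from 0 to 12.2 CPM in hCD2- mice (median 3.85, n = 11), with overlap. It was called as higher in hCD2+ cells (log2 1.29 ± 0.37; 10 of 11 mice; edgeR adjusted p = 0.0418), beside 1.60% of 9922 genes called as higher. With the mouse as a block the adjusted p was 0.0656 by edgeR, and with at least 20 cells per mouse 0.229, so that the call was lost. Free RNA allows at most 4.68 CPM of Col17a1 in these hCD2+ and 0.0385 CPM in the hCD2- cells. At least 7.59 and 5.96 CPM are then left. The same share allows 0.289 CPM of Pigr in these hCD2+ cells, where 0.0959 CPM was seen, so that it is an upper limit. Whether the fraction effect was larger in the Prdm16-low state was tested after both were seen: the difference was 2.51 ± 0.79 on the log2 scale, with an adjusted p of 0.0823 by edgeR (2.16% of 7875 genes called), which did not pass. The unadjusted p by edgeR for this gene was 0.00273. This fit had no term for the mouse, although the same mice gave cells to both classes and both fractions.

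**Figure D5:**
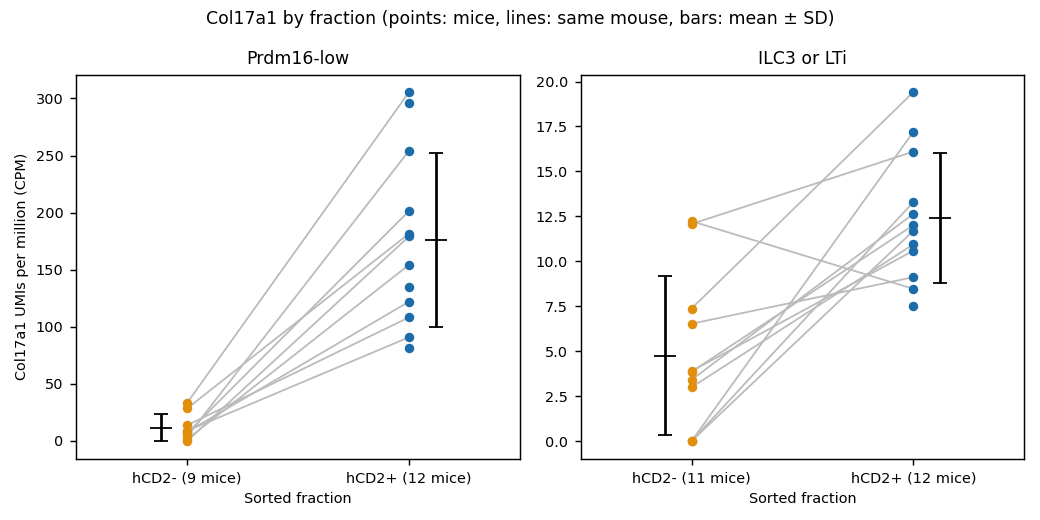
Col17a1 (CPM) in hCD2- and hCD2+ cells of the Prdm16-low state and of ILC3 or LTi cells, on separate linear axes; points are mice, lines join the fractions of 1 mouse, and bars give mean ± SD. In the Prdm16-low state every hCD2+ mouse lies at 81.7 CPM or more and every hCD2- mouse at 33.4 CPM or less.

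Epcam was tested in the Ccl17 type of CCR7+ DCs, where it ran from 4.42 to 77.3 CPM in hCD2+ and from 6.32 to 19.7 CPM in hCD2- mice (n = 12 each). It did not pass (log2 0.55 ± 0.30; higher in 6 of 12 mice; edgeR adjusted p = 0.275), beside 8.84% of 7216 genes called. No member had counts enough to be tested in the Cpne8 type of CCR7+ DCs, cDC2 or T cells, where 5.67%, 8.28% and 9.08% of genes were called. Of the listed partner genes, Fabp5 (0.53 ± 0.11), Spint2 (0.50 ± 0.13) and Afdn (0.53 ± 0.14), which encodes afadin of adherens junctions, were higher by edgeR in hCD2+ cells of the Prdm16-low state, with adjusted p of 0.00251, 0.0261 and 0.0258. They were among 9 adherens junction genes and 1 fatty acid binding protein gene tested there, beside 2.41% of 6295 genes called as higher. None of 2 tight junction and 5 desmosome genes was called, and keratins and aquaporins had too few counts to be tested. Other classes had calls too: by edgeR, Fabp5 (1.39 ± 0.30; adjusted p = 0.00326), Dst (1.31 ± 0.39; 0.0300) and Ctnna1 (0.92 ± 0.24; 0.0141) were higher in hCD2+ T cells. Pkp4, of desmosomes, was higher in hCD2+ cDC2 (0.89 ± 0.25; edgeR adjusted p = 0.0286) and lower in hCD2+ ILC3 or LTi cells (-0.45 ± 0.13; 0.0442), and Ehf, an epithelial factor gene, was lower in hCD2+ cDC2 (-0.72 ± 0.14; 0.00215).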

How the data were processed

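Per the submitters' processing notes, the authors made the deposited UMI counts per gene and barcode with Cell Ranger 8.0.1 on mm10, with no cell filter. The deposited assignment probability, a fraction, was not used; only the hashtag call was. Called cells numbered 8801 (hCD2+, 178129025 UMIs) and 5603 (hCD2-, 150904166 UMIs). Kept were cells of 1 hashtag with 500 genes or more and no more than 10% of UMIs from mitochondrial genes; doublets within a mouse remain.

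Clustering used scanpy 1.11.5 (2000 variable genes, 30 components, 15 neighbours, Leiden resolution 1.0) without members, listed genes and reporters. Members and lists were chosen with earlier results of these data known; the naming of clusters, the genes behind the free RNA bound and a minimum of 6 mice per co-detection pair were set after the data were seen. Named were the members, Prdm16, Aire and Gm38411, marker lists with their highest genes, at most 4 genes per list, and the 3 genes most like each member; Trp63 was added.

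Counts per mouse, fraction and class (at least 10 cells) were fitted with edgeR 4.0.16 (quasi-likelihood, TMM, filterByExpr, Benjamini-Hochberg 0.05) in R 4.3.3, with DESeq2 1.42.0 as an alternative, and the edgeR fit was tested on simulated data. Nothing but the hashtags says that mice are separate; equal hashtags were taken as 1 mouse, and their deviations correlated across 8188 genes at r = 0.152 to 0.588 (unequal: -0.0332 on average). Results of some genes are not reported here.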

Additional observations from a re-analysis of the deposited data

Results flagged for a closer look

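In 13 groups of 4 to 10 mice with a member at 5 CPM or more on average, 4 had 1 mouse far from the others. The rule was a limit on the gap to the next mouse over the range (Dixon's Q). Its chance rate of about 1 in 20 holds for normally distributed values only. Some groups had mice at 0 CPM, so that this rate is not a measure for them. Col17a1 in hCD2+ cDC2 was 169 CPM in 1 of 8 mice, with the next at 25.6 CPM, and in the hCD2+ Cpne8 type of CCR7+ DCs 33.6 CPM in 1 of 10 mice, with the next at 6.07 CPM. Col17a1 in the CCR7-high cluster was 227 CPM in 1 of 8 mice, with the next at 117 CPM. Cdh1 in hCD2+ cDC2 was 27.6 CPM in 1 of 8 mice, with the next at 8.43 CPM.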

How the results depend on the processing

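The 8 members' levels in their highest RORgt DC-like state or cluster moved by less than 1 SD over mice in all 48 recomputations (mitochondrial limit, cells per mouse, Leiden resolution 0.6 and 1.4, free RNA subtracted, pooling). Shares of cells with a UMI followed the depth: 21 of 24 left their interval. Of the counts of genes called between fractions, 17 of 29 recomputed stayed within 1.5 times. Thinning to 5000 UMIs gave 70 genes in the Prdm16-low state, 162 in ILC3 or LTi cells, 282 in the Ccl17 type, 52 in the Cpne8 type, 152 in cDC2 and 65 in T cells (257, 422, 638, 299, 723 and 723 without it). DESeq2 gave 737 in ILC3 or LTi cells and 481 in the Cpne8 type. At least 20 cells per mouse gave 81 in the Prdm16-low state and 33 in the Cpne8 type, and could not be fitted for cDC2. With the mouse as a replicate block, 194 were called in the Cpne8 type and 305 in cDC2; the block moved no other count by over 1.5 times.

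For Col17a1 in ILC3 or LTi cells the log2 fold change was 1.31 with the block and 0.99 with at least 20 cells per mouse, neither called. The Prdm16-low call of Col17a1 held in each of the 4 fits that could test it. Without the filter on low counts, edgeR called 9 member and class pairs (8 higher in hCD2+) and DESeq2 6 (5 higher). In each class 7 or 8 members were tested. Among the pairs was Col17a1 in the Ccl17 type, at 5.32 against 0.348 CPM and under the free RNA bound of 8.07 CPM. These fits also called many other genes in every class, and no share over all genes is set beside the pairs. The other pairs are not compared with the free RNA bound here, although hCD2+ droplets were richer in Col17a1, Fabp1, Epcam and Pigr. Nothing is therefore read from these counts. Of 18 co-detection pairs, 0 passed at 3000 UMIs, 10 at 10000 and 6 with mice of at least 40 cells. The difference for Plekhs1 in Cldn7+ cells was -2.71 points at 5000 UMIs and 13.3 at 10000, where it passed. The cause of these shifts was not tested.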

Other observations

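The few cells of these states in the hCD2- fraction also held members, as pooled values without a spread over mice. The 14 Aire-high cells of that fraction, with Aire at 769 CPM and Prdm16 at 1146 CPM, held Col17a1 at 163 CPM (47 UMIs of 288763), Epcam at 107 CPM (31 UMIs), Aqp4 at 104 CPM (30 UMIs) and Fabp1 at 65.8 CPM (19 UMIs). Pigr had 0 UMIs there, which allows up to 10.4 CPM. The 9 hCD2- cells of the CCR7-high cluster held Epcam at 166 CPM (37 UMIs of 223009) and Plekhs1 at 80.7 CPM (18 UMIs), and 0 UMIs of Pigr, Cldn7, Aqp4 and Cdh1, which allows up to 13.5 CPM of each.

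Called cells with few UMIs had mean Epcam levels below those of the droplets of their fraction, with a wide spread over mice. In the hCD2+ fraction, 1067 such cells, with a median of 2395 UMIs, held Epcam at 30.7 ± 31.6 CPM (n = 12 mice), beside 44.6 CPM in the droplets. The 282 of the hCD2- fraction held it at 5.91 ± 14.3 CPM (n = 12), beside 6.83 CPM.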
